A study of Mus musculus with 14 samples.

Results

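The intracellular calcium release channels comprise the ryanodine receptors Ryr1, Ryr2 and Ryr3 and the inositol 1,4,5-trisphosphate (IP3) receptors Itpr1, Itpr2 and Itpr3. All array probes whose only annotated gene symbol was one of these 6 genes were taken, which gave 15 of 21582 probes, for 5 of the 15094 genes named in the table. Ryr1 had 7 of them, Ryr3 had 4, Itpr2 had 2, and Ryr2 and Itpr3 had 1 each, while 0 probes carried the symbol Itpr1. A probe with no symbol in the array's annotation, NM_010585, bears a RefSeq transcript accession of Itpr1 and is described beside the 15 without being counted among them. The family was selected on the ratios against the control pool, those of the 7 disagreeing Ryr1 probes among them, so ratios against the pool are given here as a description. The difference between the diet groups was tested.

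The RNA came from C57Bl6 mouse fetuses taken at gestational day 19; which tissue was used is not stated in the labels. Mothers of the alcohol-fed group (n = 7) were kept at roughly 180 to 200 mg/dl of ethanol over gestational days 15 to 18, which the protocol counts as 4 days and the titles as 5. Mothers of the pair-fed group (n = 7) were given maltose dextrin on those days. All had free access to food and water up to gestational day 14. Each of 14 two-colour arrays carried 1 such sample in Cy5 beside a common pool in Cy3, made from 7 animals with free access throughout (its source name calls it weight matched), so the pool is the untreated control and both groups' ratios share it. The labels number 7 samples per group without naming litters, and the p-values therefore reflect the scatter of these samples alone, some of which may be technical.

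Both receptor families form tetrameric channels in the endoplasmic or sarcoplasmic reticulum and let stored calcium into the cytosol. Ryr1 is the release channel of skeletal muscle, opened by the voltage sensor of the transverse tubules; Ryr2 is that of the heart, opened by entering calcium; Ryr3 is more widely spread at low level. The IP3 receptors open when phospholipase C makes IP3 downstream of hormone, transmitter and growth factor receptors. Itpr1 is the main form of cerebellar Purkinje neurons, and Itpr2 and Itpr3 are common in liver, glands and other epithelia.

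All 7 Ryr1 probes are annotated to 1 gene, as are both Itpr2 probes, and in each set the probes gave unlike ratios. The 200 bases that end 51 bases before the start of each gene's RefSeq transcript (assembly GRCm38.p6) are shown here to identify the start of the gene that the disagreeing probes are assigned to. Ryr1 is read from the minus strand of chr7:29125202-29125401 and Itpr2 from the minus strand of chr6:146502274-146502473, written 5′ to 3′ with GC boxes (GGGCGG on either strand) in capitals.
Ryr1: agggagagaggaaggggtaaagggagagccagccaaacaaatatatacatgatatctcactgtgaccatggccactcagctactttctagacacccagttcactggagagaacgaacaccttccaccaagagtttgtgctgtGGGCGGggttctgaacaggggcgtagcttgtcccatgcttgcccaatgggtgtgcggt
Itpr2: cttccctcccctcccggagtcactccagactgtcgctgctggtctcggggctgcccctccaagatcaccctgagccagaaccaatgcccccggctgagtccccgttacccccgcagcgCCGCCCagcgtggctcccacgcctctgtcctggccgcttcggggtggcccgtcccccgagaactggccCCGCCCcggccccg
The Ryr1 window held 1 GC box and the Itpr2 window 2, and 24.6% of 32851 such windows held at least 1. Neither held an E-box (CANNTG, the same on both strands), which occurs in 59.0% of the windows. These letters describe the windows and bear on no factor, and the position of each probe in its transcript is not used here.

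Values below are log2 ratios centred on each array's median, taken as sample over pool. A log2 value of 1 is a ratio of 2. That orientation is the likely one, since the labels list the sample as channel 1, but no source states it; if it is opposite, every sign given here turns. Scale and centring are likewise inferred from the values. Ratios say nothing of a probe's brightness, and in whole-sample RNA fewer cells of a type and less RNA per cell cannot be told apart.

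Probe D21797 of Ryr1, the skeletal muscle channel, stood far above the pool on all 14 arrays. Its ratio ran from 3.98 (lowest) over 6.56 (median) to 7.44 (highest) in the alcohol-fed group, and from 2.21 over 4.45 to 7.33 in the pair-fed group. The groups overlapped: pair-fed array 6, at 7.33, exceeded all alcohol-fed arrays but the highest. The mean ratio was 5.91 ± 1.42 in alcohol-fed and 4.60 ± 1.77 in pair-fed fetuses (SD, n = 7 each), or 60.2-fold and 24.2-fold as geometric means. Of 20876 probes tested it ranked 12th from the top in the alcohol-fed and 71st in the pair-fed group. The arrays with the most placeholder values were pair-fed 6 (14.6% of probes), pair-fed 7 (9.51%) and alcohol-fed 6 (7.91%), and their ratios were 7.33, 6.40 and 7.24. Without pair-fed arrays 6 and 7 the pair-fed mean of the probe was 3.69.

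The other 6 Ryr1 probes showed no ratio of this size. Their means ran from -0.05 to 0.94 in the alcohol-fed group and from -0.68 to 0.77 in the pair-fed group, so that D21797 lay 4.97 and 3.83 above the next probe. It was the highest Ryr1 probe on 14 of 14 arrays, by 1.19 (pair-fed 2) to 6.00 (alcohol-fed 7). Among the others X78666 was the steadiest and lay above the pool on all 14 arrays, at 0.73 ± 0.49 in alcohol-fed and 0.77 ± 0.32 in pair-fed fetuses (SD, n = 7 each). D21796 lay above the pool on 6 of 7 arrays of each group, at 0.66 ± 0.51 in alcohol-fed and 0.62 ± 0.64 in pair-fed fetuses. AJ310365 averaged 0.45 ± 0.88 in alcohol-fed and 0.39 ± 0.51 in pair-fed fetuses, and AJ308737 0.03 ± 0.97 and 0.07 ± 0.80 in the same order of groups. The 2 remaining probes depended on few arrays. AJ310366 averaged -0.05 ± 0.86 in alcohol-fed and -0.68 ± 1.52 in pair-fed fetuses, where array 7 alone stood at -3.75 and the mean without it was -0.17. X83932 had values on only 5 arrays of each group, at 0.94 ± 1.57 in alcohol-fed and 0.31 ± 1.98 in pair-fed fetuses, with both signs in each; without pair-fed array 7 its pair-fed mean was -0.44. The alcohol-fed mean of AJ310365 was 0.15 without alcohol-fed array 6.

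**Figure D1:**
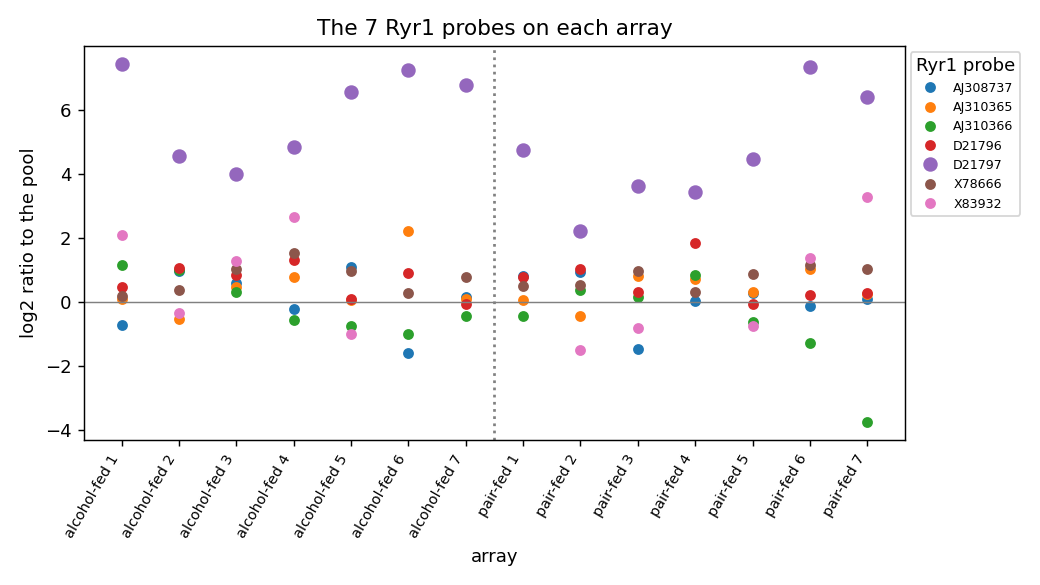
The log2 ratio to the ad libitum pool (vertical axis) of the 7 Ryr1 probes (colours) on each array (horizontal axis, alcohol-fed left of the dotted line, pair-fed right of it). D21797 lies between 2.21 and 7.44 and above every other Ryr1 probe on all 14 arrays, and the lowest point of the other probes is AJ310366 on pair-fed array 7 at -3.75.

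Nor did the Ryr1 probes move together from array to array. Over the 21 pairs of Ryr1 probes Pearson's r across the 10 or 14 arrays with values ran from -0.76 (AJ308737 with AJ310365) to 0.55 (D21797 with X83932), with a median of 0.03. All pairs share the arrays and the pool, so these values only describe the probes. The probes of other genes most like D21797 across the 14 arrays, among 11469 named probes with every value, were those of the semaphorin Sema6c (r = 0.92), the plakoglobin gene Jup (0.91) and the transcription elongation factor gene Tcea2 (0.90). These also stood far above the pool, with mean ratios of 5.00, 5.85 and 5.48 in the alcohol-fed and 4.62, 5.18 and 4.69 in the pair-fed group.

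Ryr2, the cardiac channel, was measured by 1 probe, AF295105, which lay mostly below the pool. It ran from -2.43 over -0.34 to 0.26 on 7 alcohol-fed arrays and from -3.69 over -0.85 to 1.30 on 6 pair-fed arrays. The pair-fed range enclosed the alcohol-fed one. The means were -0.76 ± 1.01 in alcohol-fed (n = 7) and -1.06 ± 1.93 in pair-fed fetuses (SD, n = 6). Without pair-fed array 6 the pair-fed mean was -0.53, and without alcohol-fed array 5 the alcohol-fed mean was -0.48.

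The 4 probes of Ryr3, the broadly spread form, lay on both sides of the pool. AF111166 ran from -0.59 over 0.86 to 2.09 in the alcohol-fed group and from 0.72 over 1.14 to 1.85 in the pair-fed group, with means of 0.60 ± 0.95 and 1.15 ± 0.37 (SD, n = 7 each). The 3 lowest alcohol-fed arrays lay below the pool, and all 7 pair-fed arrays lay above it. D84237 was below the pool on every array with a value, at -2.88 to -1.25 with a median of -1.98 on 6 alcohol-fed arrays and -4.28 to -1.45 with a median of -2.01 on 7 pair-fed arrays. Its means were -2.03 ± 0.65 in alcohol-fed (n = 6) and -2.34 ± 1.00 in pair-fed fetuses (SD, n = 7). D84236 averaged 0.37 ± 1.31 in alcohol-fed and -0.12 ± 1.11 in pair-fed fetuses, with array 3 of each group far down, at -2.38 and -1.91; the alcohol-fed mean was 0.83 without its array 3. Over the 6 pairs of Ryr3 probes r ran from -0.50 to 0.11, on 13 or 14 arrays.

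The fourth Ryr3 probe, D38218, differed most between the diet groups. It ran from -1.01 over -0.08 to 0.72 in the alcohol-fed group and from -3.11 over -1.65 to -0.21 in the pair-fed group. All 7 pair-fed arrays lay below the pool, as did 5 of 7 alcohol-fed arrays, and the groups overlapped between -1.01 and -0.21. The means were -0.15 ± 0.69 in alcohol-fed and -1.74 ± 1.28 in pair-fed fetuses (SD, n = 7 each). Its array pattern was most like those of the pregnancy glycoprotein gene Psg17, the pseudogene Gnb1-ps2 and the retinol-esterifying enzyme gene Lrat, each at r = 0.79 over 14 arrays. Without pair-fed array 5 these were 0.75, 0.72 and 0.71. The mean ratios of these genes were 1.52, -0.99 and -0.16 in the alcohol-fed and 0.47, -1.88 and -0.55 in the pair-fed group. Here and below, the genes named as most like a channel probe are the 3 highest of 11469 named probes. How high r would run among unrelated probes was not tested.

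The 2 probes of Itpr2, an IP3 receptor of liver and heart, also lay apart. NM_019923 ran from -2.89 over -1.74 to -0.46 in the alcohol-fed group, below the pool on 7 of 7 arrays. In the pair-fed group it ran from -3.53 over -1.09 to 0.05, below the pool on 6 of 7. The means were -1.76 ± 0.78 in alcohol-fed and -1.35 ± 1.16 in pair-fed fetuses, while the other probe, Z71173, averaged 0.55 ± 0.56 and 0.43 ± 0.47 (SD, n = 7 each) and lay above the pool on 6 of 7 arrays of each group. Across the 14 arrays the probes had r = -0.03. NM_019923 was most like the chromatin-binding protein gene Psip1 (r = 0.85), the insulin receptor-related gene Insrr (0.85) and 1700052K11Rik (0.82). Without pair-fed array 6 these were 0.77, 0.77 and 0.74. The ratios of these genes were of other sizes and partly of the other sign. They stood at 0.38, -1.13 and 0.69 in the alcohol-fed and 0.56, -0.92 and 1.00 in the pair-fed group.

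Itpr3, the IP3 receptor of many epithelia, had 1 probe, M90088, at -1.87 over -0.84 to 0.63 in the alcohol-fed group and -7.35 over -1.09 to 0.45 in the pair-fed group. The value of -7.35 belongs to pair-fed array 7 alone. The means were -0.73 ± 1.02 in alcohol-fed and -1.70 ± 2.58 in pair-fed fetuses (SD, n = 7 each), and the pair-fed mean without that array was -0.75. Its likeness to Pdzd11, Atp12a and Pafah1b1 (r = 0.93, 0.92 and 0.91) dropped to 0.54, 0.54 and 0.44 on the 13 arrays without it. The probe matched to Itpr1, NM_010585, ran from -2.71 over -0.22 to 0.66 in the alcohol-fed group and from -2.76 over -1.21 to 0.39 in the pair-fed group, with means of -0.34 ± 1.15 and -1.16 ± 0.94 (SD, n = 7 each). It was below the pool on 4 of 7 alcohol-fed and 6 of 7 pair-fed arrays, and its alcohol-fed mean was 0.06 without array 5. This probe was most like Sh2d4b (r = 0.90), the integrin Itgb7 (0.83) and Notch3 (0.83), or 0.87, 0.84 and 0.78 without pair-fed array 4.

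**Figure D2:**
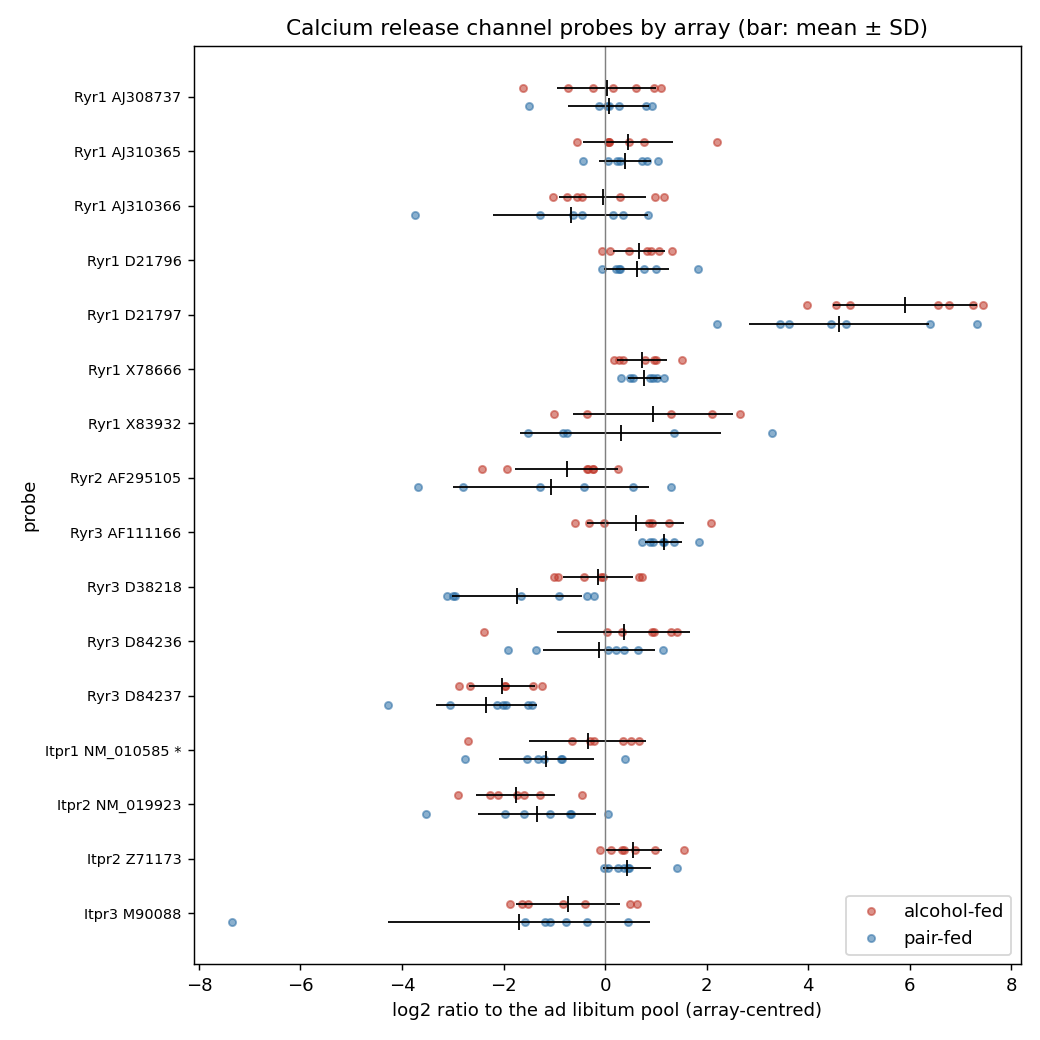
The log2 ratio to the ad libitum pool (horizontal axis) of the 15 probes and of the probe matched to Itpr1 by accession (asterisk), with each array as a point (red alcohol-fed, above blue pair-fed) and a black bar for the mean ± SD. D21797 of Ryr1 stands apart at means of 5.91 and 4.60, D84237 of Ryr3 lies below the pool on every array with a value and NM_019923 of Itpr2 on 13 of 14, X78666 of Ryr1 lies above it on all 14, and the other probes have arrays on both sides.

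Ordered by the mean ratio in the alcohol-fed group, the 15 probes ran from -2.03 (D84237 of Ryr3) to 5.91 (D21797 of Ryr1) with a median of 0.37, and in the pair-fed group from -2.34 to 4.60 with a median of 0.07. Both groups' means lay on the same side of the pool for 14 of 15 probes, a count that includes X83932, whose pair-fed mean turned negative without pair-fed array 7. Apart from D21797, neighbours in the alcohol-fed order differed by no more than the larger of their SDs, and so did those in the pair-fed order, except that AF111166 of Ryr3 (1.15 ± 0.37) lay above X78666 of Ryr1 (0.77 ± 0.32) by slightly more. Limma called 4 of the 15 probes against the pool in the alcohol-fed group (26.7%), with 2 above and 2 below it, where it called 23.5% of all probes tested, 8.02% higher and 15.5% lower. In the pair-fed group it called 6 of 15 (40.0%), 3 higher and 3 lower, where it called 21.3% of all probes, 7.86% higher and 13.5% lower. Of all calls 34.1% were higher in the alcohol-fed and 36.9% in the pair-fed group; these shares were 44.2% and 47.5% with values as deposited and 48.7% and 48.4% with quantile normalization, both of which move the median of all alcohol-fed ratios to 0.14. The family was taken up with the ratios known, so nothing is read from these counts.

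Between the diet groups no calcium release channel probe passed the test. Limma called 0 of 15 at an adjusted p under 0.05, against 0% of 20876 probes. At an unadjusted p under 0.05 it gave 1 of 15 (6.67%), against 4.22% of all probes, and all 15 had a limma adjusted p of 0.9996. The log2 difference, alcohol-fed minus pair-fed, was positive for 11 probes and negative for 4. Its median was 0.30 against 0.014 over all probes tested. Probes of 1 gene are not separate votes, and some signs depended on the 2 pair-fed arrays with the most placeholder values. Without them, a choice made after seeing the data, AJ310366 (-0.10), D21796 (-0.11), AF295105 (-0.42) and M90088 (-0.14) turned negative. X78666 turned positive (0.09), D84237 stood at 0.0 and X83932 was not tested. No shift of the family is read from the signs. In none of the 15 did the groups' arrays lie apart. The probe with the unadjusted p under 0.05 was D38218 of Ryr3, at a difference of 1.59 ± 0.54 (SE, 95% interval 0.46 to 2.71). D21797 of Ryr1 had a difference of 1.31 ± 0.76 (SE, -0.28 to 2.91). The probe matched to Itpr1 stood at 0.83 ± 0.54 (SE, -0.32 to 1.97).

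The intervals show how much could have gone unseen. Each is for 1 probe on all its arrays, without adjustment for the number of probes. They excluded a 2-fold difference in either direction for 4 probes, AJ310365 (-0.84 to 0.96), D21796 (-0.77 to 0.86) and X78666 (-0.76 to 0.68) of Ryr1 and Z71173 of Itpr2 (-0.65 to 0.90). A 4-fold difference was excluded for 11 of 15, among them AF295105 of Ryr2 (-1.26 to 1.86), and was not for D21797, X83932 (-1.39 to 2.65), D38218 and M90088 of Itpr3 (-0.94 to 2.87). The difference of M90088 was 0.96 with all arrays and 0.02 without pair-fed array 7. That of AJ310366 was 0.63 and, without the same array, 0.12. That of X83932 was 0.63 and ran from 0.18 to 1.37 with 1 array left out. That of AF295105 was 0.30 and ran from -0.23 (without pair-fed array 6) to 0.77 with 1 array left out. Intervals with an array left out are not given here, so the exclusions hold for all arrays only.

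**Figure D3:**
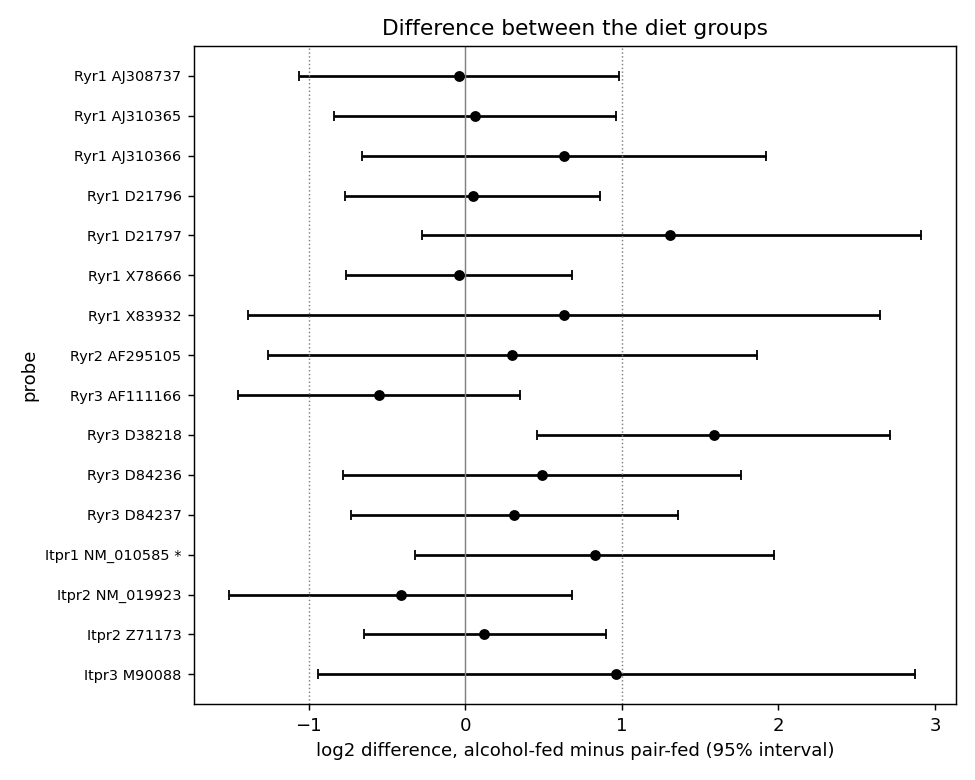
The log2 difference alcohol-fed minus pair-fed (horizontal axis) of each probe, as the limma estimate with its 95% interval, with dotted lines at a 2-fold difference either way and the probe matched to Itpr1 marked by an asterisk. Only the interval of D38218 of Ryr3, from 0.46 to 2.71, leaves out 0, and its adjusted p is 0.9996.

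The genes that act with these channels were taken from 8 lists holding 117 genes, of which 92 had a tested probe. Between the diet groups limma called 0 of the 92. Against the pool 16 were called higher (17.4%) and 15 lower (16.3%) in the alcohol-fed group, where 8.8% of 14610 named genes were called higher only and 16.2% lower only. In the pair-fed group 7 were called higher (7.61%) and 12 lower (13.0%), against 8.39% and 14.4%. A further 0.246% and 0.226% of named genes were called both ways, by different probes. With values as deposited the alcohol-fed counts were 17 and 10, and with quantile normalization 19 and 13; in the pair-fed group they were 9 and 9, and 15 and 11. Leaving out 1 array moved the counts of higher genes by over 1.5 times: the alcohol-fed count was 10 without alcohol-fed array 1, 3, 5 or 7, and the pair-fed count was 4 without pair-fed array 5 and 14 without pair-fed array 3. In tests against the pool it stands for 1 control sample, its own spread does not enter, and because the dyes were never swapped, dye and sample cannot be told apart. Ratios of genes below are means ± SE from limma, given for alcohol-fed and then for pair-fed fetuses. Genes were named by their alcohol-fed calls, so those called in the pair-fed group alone were left out. Among the latter were Gna14 (1.31), Calu (0.89) and Trpc6 (-0.83 in pair-fed fetuses). A call in 1 group and none in the other is not a difference between the groups.

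Upstream of the IP3 receptors, 4 of 14 genes of IP3 production were called higher and 1 lower in the alcohol-fed group (median of probes 0.42), and 1 and 0 in the pair-fed group (0.22), where the median of all probes was 0.007 and -0.031. Plcz1, the sperm phospholipase C, stood at 1.18 ± 0.35 in alcohol-fed fetuses (adjusted p = 0.0228, limma) and at 0.75 ± 0.35 in pair-fed fetuses, which did not pass. Plcb3, a phospholipase C driven by G proteins, stood at 1.03 ± 0.31 (limma adjusted p = 0.0242) in alcohol-fed and 0.80 ± 0.31 in pair-fed fetuses, not past. Gnaq, the G protein subunit that activates such enzymes, stood at -1.30 ± 0.28 (limma adjusted p = 0.00406) and -0.70 ± 0.31, not past, and its other 2 probes at 0.17 and 0.26 in the alcohol-fed group. The Plcz1 call ended without alcohol-fed array 1 or 4 (limma adjusted p up to 0.0763) and that of Plcb3 without 1, 6 or 7 (up to 0.0648).

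Of 10 genes that remove IP3 or regulate its receptors, 0 were higher and 3 lower in each group, and the median of probes was -0.53 in both. Itpkb, which phosphorylates IP3, stood at -1.97 ± 0.51 on 5 alcohol-fed arrays and -1.43 ± 0.43 on 7 pair-fed arrays (limma adjusted p = 0.0125 and 0.0283). Mrvi1 (now Irag1), which ties the IP3 receptor to cGMP-dependent kinase in smooth muscle, stood at -1.60 ± 0.38 and -2.02 ± 0.38 on 6 arrays of each group (limma adjusted p = 0.00795 and 0.00171).

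Among 15 regulators of ryanodine receptors, 3 were higher and 2 lower in the alcohol-fed group, and 1 and 2 in the pair-fed group. Fkbp1a, the immunophilin that stabilises the closed channel, stood at 1.16 ± 0.33 in alcohol-fed fetuses (limma adjusted p = 0.0177, 0.0568 without alcohol-fed array 7) and 0.90 ± 0.33 in pair-fed fetuses, not past. Homer1, a scaffold that binds both receptor families, stood at 0.84 ± 0.29 and 0.59 ± 0.29. Its alcohol-fed call (limma adjusted p = 0.0464) ended without alcohol-fed array 1, 3, 4, 5, 6 or 7 or pair-fed array 1, 3 or 4, with an adjusted p of up to 0.1405. Pde4d, a cAMP phosphodiesterase found at the cardiac channel, fell in both groups, at -3.60 ± 0.44 and -3.62 ± 0.44 (limma adjusted p = 1.42e-05 for alcohol-fed), with its other probe at -0.28. Selenon, a reticulum selenoprotein that supports ryanodine receptor function, stood at -2.22 ± 0.52 on 5 alcohol-fed and -1.95 ± 0.58 on 4 pair-fed arrays (limma adjusted p = 0.00888 and 0.0302).

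Of 13 genes of the voltage sensor and its junction with the reticulum, 1 was higher and 4 lower in the alcohol-fed group, and 0 and 4 in the pair-fed group. Cacna2d1, the accessory subunit of the voltage sensor in muscle, fell on all 14 arrays, to -4.61 ± 0.54 in alcohol-fed and -5.20 ± 0.54 in pair-fed fetuses (limma adjusted p = 6.88e-06 for alcohol-fed). Cacna1d, an L-type channel of endocrine and nerve cells, stood at -1.97 ± 0.36 and -1.42 ± 0.39 (limma adjusted p = 0.00106 and 0.0167), with its other probe at 0.07. Jph2, which holds the junction together in heart, stood at 1.06 ± 0.33 (limma adjusted p = 0.0275) and 0.91 ± 0.33, not past, with its other probe at -0.40. Its call ended without alcohol-fed array 2, 3, 5 or 6 (limma adjusted p up to 0.0735).

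Inside the store, 4 of 13 luminal calcium buffers were higher and 0 lower in the alcohol-fed group, and 3 and 0 in the pair-fed group, with a median of probes of 0.56 in both. Casq2, the cardiac calsequestrin that binds calcium beside the release channel, rose to 2.16 ± 0.31 in alcohol-fed and 2.17 ± 0.31 in pair-fed fetuses (limma adjusted p = 8.96e-05 for alcohol-fed). Hspa5, the chaperone BiP, rose to 1.32 ± 0.33 and 1.37 ± 0.33 (limma adjusted p = 0.00831 and 0.00693), with its other probe at 0.63.

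Of 11 calcium pumps and exchangers, 1 was higher and 4 lower in the alcohol-fed group, and 1 and 2 in the pair-fed group. Slc8a3, a sodium-calcium exchanger of muscle and brain, rose to 3.57 ± 0.69 and 3.62 ± 0.69 (limma adjusted p = 0.0014 and 0.0013). Atp2b1, the common plasma membrane calcium pump, fell to -2.08 ± 0.44 in alcohol-fed and -3.01 ± 0.47 in pair-fed fetuses (limma adjusted p = 0.00315 and 0.000288). Atp2b2, its relative in neurons and hair cells, fell to -1.35 ± 0.44 and -2.17 ± 0.44 (limma adjusted p = 0.0323 and 0.00205), and the alcohol-fed call ended without alcohol-fed array 1, 2, 3 or 4 (up to 0.0899) and with values as deposited (0.0844).

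For store-operated entry 1 of 6 genes was higher and 1 lower in the alcohol-fed group, and 0 and 1 in the pair-fed group. Tmco1, a calcium leak channel of the reticulum, fell to -2.11 ± 0.35 in alcohol-fed fetuses (limma adjusted p = 0.000419). It stood at -0.36 ± 0.35 in pair-fed fetuses, not past. Its difference between the groups, -1.75 ± 0.50, had an unadjusted limma p of 0.00261 and did not pass. Tmco1 was named for its alcohol-fed ratio. An unadjusted limma p under 0.05 was met by 1 of 6 probes of this list, 1 of 15 of the voltage sensor list and 2 of 14 of the luminal buffers. The others besides Tmco1 were Cacng1 (2.15), Casq1 (1.14) and Hrc (1.02), all positive. No probe of the other pathway lists met it, and 4.22% of all probes did. The cation channel gene Trpc5 stood at 1.20 ± 0.34 (limma adjusted p = 0.0176, 0.0505 without alcohol-fed array 3) and 0.95 ± 0.34, not past. Of 10 genes of mitochondrial calcium uptake 2 were higher and 0 lower in the alcohol-fed group, and 1 and 0 in the pair-fed group. The outer membrane channel Vdac1 rose to 0.99 ± 0.28 and 1.01 ± 0.28 (limma adjusted p = 0.0189 and 0.0181, 0.0519 without alcohol-fed array 7), and Vdac2 stood at 0.87 ± 0.26 (0.0233, up to 0.0618 without alcohol-fed array 5 or 7) and 0.53 ± 0.26, not past.

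**Figure D4:**
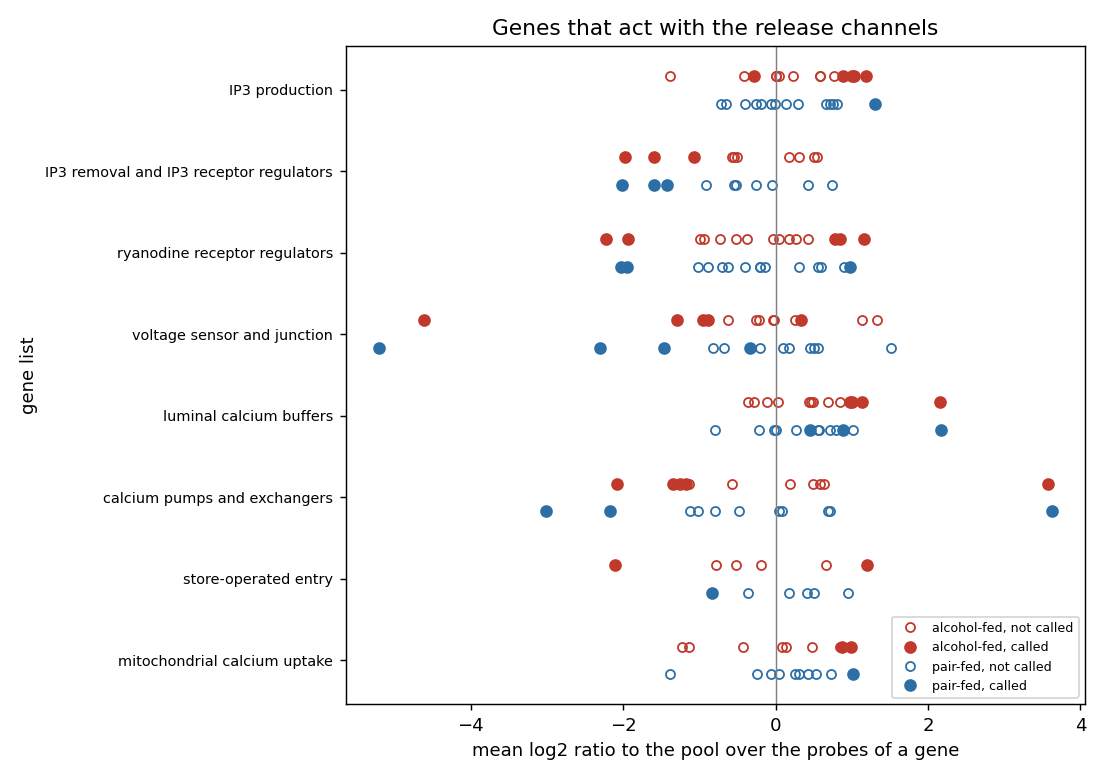
The mean log2 ratio to the ad libitum pool over the probes of a gene (horizontal axis) for the 92 tested genes of 8 lists (rows), red for alcohol-fed above blue for pair-fed, filled where a probe of the gene was called by limma. The luminal buffers and the mitochondrial calcium uptake genes have no called gene below 0, and the most negative gene is Cacna2d1, at -4.61 and -5.20.

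Markers of the cells in which these channels are known to act, and of other cells a fetus holds, came from 9 lists with 75 tested genes. Of these 4 were called higher (5.33%) and 24 lower (32.0%) in the alcohol-fed group, where all named genes gave 8.8% and 16.2%. In the pair-fed group 5 were higher (6.67%), 25 lower (33.3%) and 1 both ways, where all named genes gave 8.39% and 14.4%. With values as deposited the alcohol-fed counts were 6 and 20 and the pair-fed counts 6 and 18, and with quantile normalization 10 and 22, and 7 and 23. The alcohol-fed count of higher genes was 2 without alcohol-fed array 7. Between the diet groups limma called 0 of the 75. An unadjusted limma p under 0.05 was met by 2 skeletal muscle probes, 2 of smooth muscle and 1 each of heart, hepatocytes, leukocytes and placenta. Negative differences were those of Actn3 (-3.31), Myh1 (-1.48), Acta2 (-0.96), Cd4 (-1.94) and Mylk (-0.73 over its 2 probes). Nkx2-5 (1.44), Ahsg (1.18) and Psg17 (1.05) were positive. Skeletal muscle, where Ryr1 acts, had 0 of 11 higher and 5 lower in each group, with the array medians of the list from -2.97 to -0.60 in alcohol-fed and -1.25 to -0.54 in pair-fed fetuses; the troponin gene Tnni2 stood at -3.66 ± 0.39 and -3.33 ± 0.39 (SE, limma adjusted p = 2.31e-06 for alcohol-fed). Heart, where Ryr2 acts, had 0 of 10 higher and 2 lower in the alcohol-fed and 0 and 4 in the pair-fed group, with array medians from -0.80 to 0.21 and from -1.51 to -0.03, and its troponin Tnnt2 stood at -4.16 ± 0.82 and -3.14 ± 0.82 on 6 arrays each (limma adjusted p = 0.00214 and 0.0135). The alcohol-fed values of Tnnt2 ran from -10.29 to -1.97 with a median of -3.4. Purkinje cells, where Itpr1 acts, had 1 of 7 higher and 1 lower in each group, with array medians from -1.48 to 0.83 and from -0.71 to 0.66. Pcp4 stood at 0.97 ± 0.29 and 1.07 ± 0.29 (limma adjusted p = 0.0211 and 0.0132), and Pcp2 at -1.63 ± 0.44 and -1.79 ± 0.48 (0.0151 and 0.0147). The alcohol-fed calls ended without alcohol-fed array 1 or 7 for Pcp4 (limma adjusted p up to 0.0632) and without 5 for Pcp2 (0.0503).

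The other marker lists were those of smooth muscle (0 of 8 higher and 4 lower in the alcohol-fed group, led by the calponin Cnn1 at -3.67 ± 0.44), neurons (0 and 1 of 10, Gad2 at -3.32 ± 0.60 with its other probe at 0.13), hepatocytes (0 and 4 of 10, Rbp4 at -2.40 ± 0.38), erythroid cells (0 and 3 of 6, Tfrc at -2.99 ± 0.41 with its other probe at 0.12), leukocytes (0 and 4 of 8, Il7r at -3.75 ± 0.37) and placenta (3 and 0 of 5, Psg17 at 1.52 ± 0.28). The pair-fed counts were 2 higher and 3 lower for smooth muscle, 1 and 0 with 1 both ways for neurons, 0 and 5 for hepatocytes, 0 and 3 for erythroid cells, 0 and 4 for leukocytes and 1 and 0 for placenta. There the same genes stood at -3.57 ± 0.47, -4.23 ± 0.64, -2.62 ± 0.38, -2.34 ± 0.41, -3.25 ± 0.37 and 0.47 ± 0.28, and Psg17 did not pass. The medians of probes, alcohol-fed and then pair-fed, were -0.71 and -0.85 for smooth muscle and 0.13 and 0.38 for neurons. They were -0.15 and -1.06 for hepatocytes, -0.60 and -0.21 for erythroid cells, -0.91 and -0.84 for leukocytes and 0.71 and 0.49 for placenta. Of the placenta genes called higher in the alcohol-fed group, Prl2c2 had a mean of -0.22 over its 2 probes, which disagreed. Whether a marker's signal lay above background is not known from ratios, and the part of these cells in the ratios of the channel probes was not tested.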

How the data were processed

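The values are the deposited log2 ratios, 1 per probe and array, in a table of 21582 probes. Per the labels' protocols, total RNA was reverse-transcribed and labelled with a Cy3/Cy5 kit; no source used here names the scanner, the background correction or the normalization, and brightness is unknown. Exact zeros and the table's highest value (16.61) stand as placeholders on each array and were treated as missing (2.57% to 14.6% of an array). Log2 ratios were then centred by array median. A probe was tested if each group had 4 or more values (20876 probes) with limma 3.58.1 in R 4.3.3 (all 14 arrays in 1 fit, two-sided, Benjamini-Hochberg over all probes, adjusted p under 0.05). Missing arrays of a probe were dropped from its fit. The number of arrays limits the precision.

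Symbols come from the array's annotation (16635 probes with 1 symbol, 113 with several, 4834 with none), checked by gene number against RefSeq names of GRCm38.p6, and 0 were updated. Named list genes are up to 2 called in each direction per pathway list, and up to 1 for markers, with the largest alcohol-fed ratio. Members and lists were chosen with earlier results of these data known. The titles number the samples 1 to 7 in each group, but deviations of same-numbered arrays correlated at only -0.083 to 0.185, so the numbers were not taken to pair samples. No pair of arrays shared over 0.287% identical values, so no column of values repeats another. Each array was counted as 1 replicate, but this check cannot show that the samples are independent. Arrays correlated at r = 0.263 to 0.698 across probes.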

Additional observations from a re-analysis of the deposited data

Results flagged for a closer look

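Of 32 sets of values (15 probes and the probe matched to Itpr1, in each group), 5 held 1 array far from the others by Dixon's 95% criterion, which chance meets in about 1 of 20. For M90088 of Itpr3, pair-fed array 7 stood at -7.35 with the next at -1.57. For D84236 of Ryr3, alcohol-fed array 3 stood at -2.38 with the next at 0.03. For the probe matched to Itpr1, NM_010585, alcohol-fed array 5 stood at -2.71 with the next at -0.66. For AJ308737 of Ryr1, pair-fed array 3 stood at -1.49 with the next at -0.12. That gap was 0.568 of the range against a limit of 0.568, on rounded ratios, so rounding may decide this flag. For Z71173 of Itpr2, pair-fed array 2 stood high, at 1.41, with the next at 0.46.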

How the results depend on the processing

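Over 24 other settings limma called 0 probes between the diet groups, and the lowest adjusted p of a channel probe was 0.8932. The total counts called against the pool stayed within 1.5 times those given, from 3590 to 5297 (alcohol-fed) and 3256 to 4891 (pair-fed) with 1 array left out. The counts called higher moved further: from 1675 as given to 1059 without alcohol-fed array 4 and 1068 without 3 (alcohol-fed), and from 1641 to 1045 without pair-fed array 5, 1091 without 4 and 883 without 6 and 7 (pair-fed); with quantile normalization the alcohol-fed count was 2894. With the replicate number as a block the totals were 4121 (1227 higher, alcohol-fed) and 3888 (1289 higher, pair-fed), and 0 probes were called between the groups. The block leaves the difference of a probe with every array as it is; X83932 moved to 1.01 and AF295105 to 0.58 (no limma adjusted p under 0.8932), and the block ended the alcohol-fed calls of Homer1 (0.0708), Selenon (0.0539) and Pcp4 (0.0573). That of Homer1 also ended with placeholders kept as values (0.0507), with array weights (0.0729) and without pair-fed arrays 6 and 7 (0.0501). Of the 14 arrays, 4 correlated best, in their deviations from the group mean, with their own number among the 7 arrays of the other group. Small differences between the groups changed sign, and the cause was not tested. With quantile normalization AJ308737 stood at 0.08 and X78666 at 0.04. With scale normalization AJ308737 stood at 0.09 and AJ310365 at -0.02. With array weights AJ308737 stood at 0.18, AJ310365 at -0.10, D21796 at -0.01 and X78666 at 0.06. Without pair-fed arrays 6 and 7, a choice made after seeing the data, AJ310366 stood at -0.10, D21796 at -0.11, X78666 at 0.09, AF295105 at -0.42 and M90088 at -0.14. Leaving out 1 array at a time gave -0.30 to 0.24 for AJ308737, -0.24 to 0.23 for AJ310365, -0.07 to 0.25 for D21796, -0.17 to 0.05 for X78666, -0.23 to 0.77 for AF295105, -0.01 to 0.48 for D84237 and -0.04 to 0.29 for Z71173. D38218 ran from 1.36 to 1.84 and D21797 from 0.91 to 1.77 (2.22 without both arrays). Brightness over background, which would limit precision, is unknown.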

Other observations

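After D21797 of Ryr1 had been seen to stand far above the pool, it was set beside the 86 other probes with a mean ratio over 4 and a value on every array, of which 69 carry 1 gene symbol. Across the 14 arrays their r with D21797 had a median of 0.65 (0.05 to 0.92) and exceeded 0.5 for 58 of them (67.4%), while over the remaining 14579 probes the median was 0.01 and 5% exceeded 0.5. The median ratio of the 86 probes ran by array from 4.14 to 6.12 in the alcohol-fed and from 4.15 to 6.60 in the pair-fed group, and the highest arrays were alcohol-fed 6 and pair-fed 6. These are descriptions of probes that share arrays and pool.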
